A study of Mus musculus with 12 samples.

Results

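The members described here are the 41 CpG sites that the authors' deposited table of differential methylation lists in the 5.5 Mb of chromosome 12 that begin at position 19000000 (GRCm38), out of 2798 sites in the whole table. They were chosen by position alone. The interval was drawn around 4 predicted genes, Gm9257, Gm3993, Gm10479 and Gm40862, which had been seen to carry many called sites of both directions, so the number, size and direction of the sites are given as a description and without a test. The table compares splenic CD11c-positive dendritic cells of 2 groups of female C57BL/6 offspring (F1), whose mothers (F0) received either corn oil (6 libraries) or di(2-ethylhexyl) phthalate (DEHP), a plasticiser, at 37 µg per kg per day (6 libraries), in both cases for 10 days before they were mated to untreated males. All 12 libraries are labelled as coming from mice immunised with OVA. The sources used here do not give the age of the offspring, the number of mothers or litters, or whether each library is 1 animal. Spleen tissue is named beside dendritic cells in the extraction protocol, and methylation differences alone hold no marker level against which the cell type could be checked.

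Reduced representation bisulfite sequencing reads the methylation of CpG sites in restriction fragments that favour CpG-rich DNA. Such DNA is often found at gene starts, where methylation usually accompanies low transcription. Symbols that begin with Gm are given to mouse genes predicted from the genome sequence, many without a known function. Where a gene stands in many near-identical copies, a short read, made even less distinctive by the conversion of unmethylated cytosines to thymine, can match several copies. The values used here are the authors' own differences between the groups in percentage points, with no level, depth or spread for any library, so the error of a single difference is unknown. A positive difference, placed by the authors in their hypermethylated file, is called a gain and read as more methylation after maternal DEHP. The table itself does not state which group was subtracted.

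Several genes of the interval share the sequence of their starts, and these sequences are shown because called CpGs lie in some of them and not in others. Start windows held 12 of the 41 called sites. RefSeq start windows (250 bases before to 50 after an annotated start, GRCm38.p6) could be matched for 45 of the 93 genes that overlap the interval. A window was counted as like that of Gm9257 when it shared at least 20 of its 20-base words, a limit set after the counts were seen. The least alike window inside the limit shared 22 words and the most alike one outside it shared 6. By this measure 11 genes of the interval belonged to 1 family of starts, and 2 more, Gm9222 and 5730507C01Rik, lay below it on the same chromosome. No start window on another chromosome passed the limit. The windows below belong to the 4 family genes that hold a called CpG in them, with each called CpG in capitals. All are written 5′ to 3′ on the gene's own strand: Gm9257 (chr12:19606348-19606647, plus strand), Gm10479 (chr12:20415271-20415570, plus strand), Gm38538 (chr12:22745685-22745984, minus strand) and Gm38699 (chr12:23800906-23801205, minus strand).
Gm9257: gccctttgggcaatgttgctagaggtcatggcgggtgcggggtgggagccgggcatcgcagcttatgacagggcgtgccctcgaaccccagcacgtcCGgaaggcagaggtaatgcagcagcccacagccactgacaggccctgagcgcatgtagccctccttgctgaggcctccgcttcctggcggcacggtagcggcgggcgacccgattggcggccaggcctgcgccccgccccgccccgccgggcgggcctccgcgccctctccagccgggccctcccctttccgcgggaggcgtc
Gm10479: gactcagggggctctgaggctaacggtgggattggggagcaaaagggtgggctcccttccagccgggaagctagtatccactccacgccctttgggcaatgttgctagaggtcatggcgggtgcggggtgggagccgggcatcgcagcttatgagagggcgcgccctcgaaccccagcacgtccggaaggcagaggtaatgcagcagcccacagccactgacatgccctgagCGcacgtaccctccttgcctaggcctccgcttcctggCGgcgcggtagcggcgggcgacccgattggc
Gm38538: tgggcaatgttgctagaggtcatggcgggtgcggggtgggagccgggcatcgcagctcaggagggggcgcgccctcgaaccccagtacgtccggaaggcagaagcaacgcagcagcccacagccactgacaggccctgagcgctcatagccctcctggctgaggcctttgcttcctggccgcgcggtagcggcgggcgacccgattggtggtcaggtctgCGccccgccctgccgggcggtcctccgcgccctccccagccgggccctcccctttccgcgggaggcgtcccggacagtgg
Gm38699: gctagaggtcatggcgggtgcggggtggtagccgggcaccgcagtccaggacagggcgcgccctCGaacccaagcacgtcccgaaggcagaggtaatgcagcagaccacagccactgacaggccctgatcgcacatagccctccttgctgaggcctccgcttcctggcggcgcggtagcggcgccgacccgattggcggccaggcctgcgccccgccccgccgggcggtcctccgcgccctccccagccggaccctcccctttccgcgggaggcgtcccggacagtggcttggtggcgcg

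Each of these 5 called CpGs was also a CpG in most other family members and was called in none of them at the aligned position. The start windows of the 13 family genes were aligned with MAFFT, and identity over aligned bases ran from 66.7% to 97.7% (median 90.9% over 90 pairs), with the longest identical run of a pair between 14 and 111 bases (median 44). Gm9257 and Gm10479 were 96.7% identical. The called CpG of Gm9257, at 19606445, had a CpG facing it in 8 of the 10 other genes that aligned there, Gm10479 among them. For Gm10479 the numbers were 9 of 12 at 20415503 and 10 of 12 at 20415540. They were 10 of 11 for the site of Gm38538 at 22745763 and 9 of 10 for that of Gm38699 at 23801140. The closest relative of the Gm9257 window, that of Gm21297 (97.3% identical, with a shared run of 111 bases), held no called site. Which of the facing CpGs were covered by reads is unknown, so an uncalled copy is not shown to be unchanged.

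How far a called CpG can be told apart by sequence differed between the copies. The CpG of Gm9257 lies in a stretch of 61 bases that is found unaltered in the start window of Gm10479. When every C on the gene's own strand was written as T, as after full conversion, that stretch was 68 bases. For the CpG of Gm38538 the longest such stretch was 50 bases, shared with Gm5784 and 2410018L13Rik. After conversion it was 95 bases, shared with only 1 gene. For Gm38699 it was 31 bases on either count. At Gm10479 it was 48 bases for the CpG at 20415540 but 13 bases, and 17 after conversion, for the CpG at 20415503. Only start windows in the RefSeq table were searched, so copies among pseudogenes or outside those windows are not included. Conversion was applied to the gene's own strand only, so the lengths after conversion do not cover reads of the opposite strand. The search also stopped at the window edges. A stretch that reaches an edge, as for the CpG at 20415540, is therefore a lower limit. The sources used here do not give read length, aligner or the treatment of reads that match several places, and the part of copy-ambiguous reads in these differences was not tested.

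Gm40862 has a second annotated start whose window holds 6 of the called CpGs, the most in any single start window of the interval, and this window has a near twin in Gm40847. The windows of Gm40862 (chr12:23634343-23634642, minus strand) and Gm40847 (chr12:18853705-18854004, plus strand) aligned over all 300 bases with 3 mismatches. They are shown as a pair because the called CpGs, in capitals, differ between them.
Gm40862: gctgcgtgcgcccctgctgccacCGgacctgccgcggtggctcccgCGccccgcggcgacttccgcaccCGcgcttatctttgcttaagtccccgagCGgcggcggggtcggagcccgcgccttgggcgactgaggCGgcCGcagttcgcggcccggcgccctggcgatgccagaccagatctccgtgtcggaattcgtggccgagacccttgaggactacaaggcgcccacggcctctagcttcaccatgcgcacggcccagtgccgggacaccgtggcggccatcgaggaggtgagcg
Gm40847: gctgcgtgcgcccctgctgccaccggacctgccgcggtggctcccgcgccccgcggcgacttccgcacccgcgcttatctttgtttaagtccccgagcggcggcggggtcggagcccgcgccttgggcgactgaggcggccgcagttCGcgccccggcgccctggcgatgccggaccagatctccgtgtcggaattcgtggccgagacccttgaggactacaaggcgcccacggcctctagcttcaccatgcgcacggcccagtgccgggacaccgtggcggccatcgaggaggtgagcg

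Gm40847 starts just below the interval, so its site is not a member, but it is the called site nearest to the lower limit. In the authors' deposited table it stands at 18853852 with a loss of -33.1 percentage points. The CpG facing it in Gm40862, at 23634494, was not called. Conversely, all 6 called CpGs of Gm40862 face a CpG in Gm40847 and 0 of those was called. Whether the uncalled CpGs of this pair were covered by reads is unknown, so they are not shown to be unchanged. In the authors' deposited table the 6 differences in Gm40862 were 31.4 points at 23634501, 31.2 at 23634505, -26.0 at 23634544, 27.5 at 23634572, 37.9 at 23634595 and 35.0 at 23634618. Thus 5 were gains and 1, in the middle of the run, was a loss. The first 3 of these CpGs lie in a stretch of 67 bases, and the last 3 in one of 83 bases, that Gm40847 shares unaltered. When every C on the gene's own strand was written as T, the shared stretch was 151 bases. The opposite strand was not converted in this way. The stretches of 83 and 151 bases begin at the edge of the window, where the search stopped, so both are lower limits.

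The 41 sites held 26 gains and 15 losses, a share of 63.4% gains (95% Clopper-Pearson interval 46.9 to 77.9, counting error only, over sites that are not independent). On the rest of chromosome 12 the table lists 102 sites, of which 47 (46.1%, 36.2 to 56.2) were gains. The interval holds 28.7% of the chromosome's called sites on 4.58% of its length, taken from the first to the last annotated gene. That is 7.45 sites per Mb against 0.891 elsewhere on the chromosome, or 8.37 times. Counted as loci, with sites up to 1 kb apart merged, the ratio was 3.51. The density of genes was 16.9 per Mb in the interval and 18.3 per Mb elsewhere. The density of sites follows from how the interval was chosen.

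The sizes of the differences overlapped widely. In the authors' deposited table the median absolute difference was 31.0 percentage points in the interval (quartiles 26.9 and 34.4) and 29.3 on the rest of chromosome 12 (26.8 and 33.2). Gains had a median of 31.3 points and losses of -26.9. The largest gain of the interval, 52.0 points at 20071509 beside Gm3993, was close to the largest on the rest of the chromosome, 51.7. The largest loss was -37.6 points at 19243776, 144 bp before the start of the long noncoding RNA gene Gm40843. The deposited q-value was 0 for 35 of the 41 sites, and the largest was 5.98e-13.

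**Figure D1:**
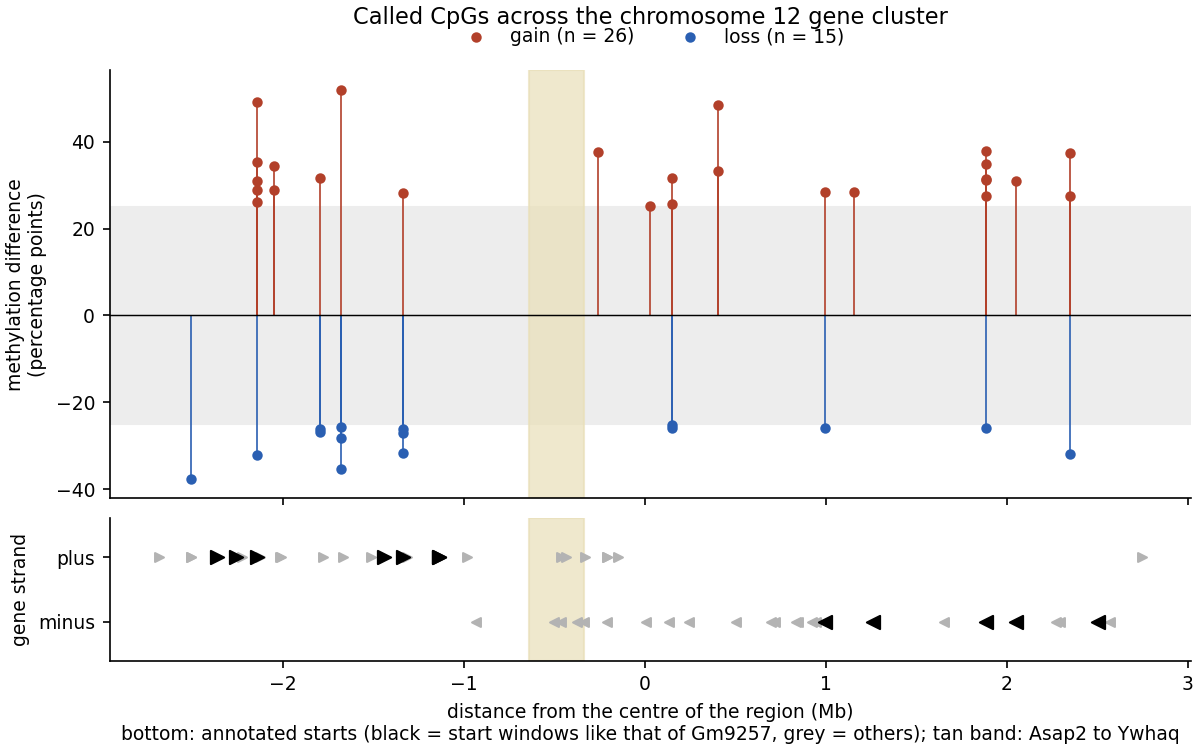
Methylation difference in percentage points of the 41 called CpGs (top, red gains, blue losses, grey band the differences under 25 points that the table does not list) and strand of annotated gene starts (bottom, black for the family of Gm9257), against distance in Mb from the centre of the region. The tan band is the block from Asap2 to Ywhaq, which held 0 sites, and the family starts point towards it from both sides.

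The sites fell on both sides of a block of protein-coding genes with established names. Of the 7 such genes in the interval, 0 had a called site inside the gene or up to 5 kb from it, against 4.10% of all genes and 3.57% of the other genes of chromosome 12. With 7 genes, a count of 0 is not apart from those shares. They are Asap2, a regulator of small GTPases, Itgb1bp1, an integrin-binding protein gene, Cpsf3, the endonuclease of mRNA 3′ end processing, Iah1, an esterase gene, Adam17, the protease that releases TNF, Ywhaq, a 14-3-3 protein gene, and Taf1b, a factor of ribosomal RNA transcription. The first 6 stand together between 21111368 and 21417436. Below this block lay 20 called sites in 6 loci, 10 gains and 10 losses, and above it 21 sites in 9 loci, 16 gains and 5 losses. The family starts were mirrored around the block, with 6 of 6 genes on the plus strand below it and 5 of 5 on the minus strand above it.

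Of the 93 genes that overlap the interval, 13 (14.0%) had 1 or more of its 41 sites inside the gene or up to 5 kb from it. Over all 49993 genes of the table the share with a called site was 4.10%. For the 93 genes, called sites outside the interval were not counted. Gm40847, whose span reaches into the interval, holds the loss at 18853852 below it. It is therefore counted here as a gene without a site. Gains were found at 11 genes of the interval (11.8%, against 2.14% on the rest of chromosome 12 and 2.24% of all genes). Losses were found at 9 (9.68%, against 1.91% and 2.29%), and 7 genes had both. Within spans alone 8 genes held a site, and with a margin of 20 kb 22 did. For these margins, and for genes with both directions, no share over all genes was counted. Of the 71 genes with a Gm symbol 8 carried a site of the interval. These were 6 of the 26 protein-coding ones, 1 of the 30 pseudogenes and the long noncoding RNA gene Gm40843. The site of Gm40847, a protein-coding gene, is again left out. Among protein-coding Gm genes outside the interval 1.67% carried a called site. Since the interval was chosen for its called sites, nothing is read from these counts and shares.

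Most called sites lay near an end of an annotated gene. Of 15 loci, 9 came within 1 kb of the end of an annotated gene span (median distance 227 bp), and these 9 held 29 of the 41 sites. On the rest of chromosome 12 it was 17 of 89 loci (median 10683 bp). The 9 loci include those at Gm9257, Gm3993, Gm10479 and Gm40862, the genes with called sites that the interval was drawn around. Nothing is therefore read from this contrast. Where the RefSeq table gave the gene's strand, the end was the start of transcription in every case, namely at Gm40843, Gm9257, Gm10479, Gm38538, Gm40862 and Gm38699. For Gm3993, Gm4425 and 9030624G23Rik the strand was not in the table. Another 5 loci with 11 sites lay more than 10 kb from any gene end.

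Gm9257 (chromosome 12, 19606598 to 19659186) had 6 sites, 1 outside the gene and 5 within the first 475 bp downstream. The authors' deposited table gives a loss of -32.0 points at 19606445, 153 bp upstream of the start. Downstream it gives gains of 31.1 points at 208 bp, 26.2 at 217 bp, 35.5 at 220 bp, 49.1 at 450 bp and 29.0 at 475 bp. The single upstream site thus differed in sign from all 5 sites inside the gene.

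Gm3993 (20071570 to 20111705) had 4 sites at its lower end, 2 on each side of it, and those inside the gene were losses. In the authors' deposited table, the site 84 bp outside the span was a loss of -25.7 points and the site 61 bp outside it, 23 bp away from the first, was the gain of 52.0 points named above. Inside the span, at 205 and 207 bp, the table lists losses of -35.3 and -28.2 points. Between the gain and the first of these losses, 266 bp apart, the difference changed by 87.3 points, the most between any neighbouring called sites of a locus in the interval.

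Gm10479 (20415521 to 20462084) had 3 losses and 1 gain. The authors' deposited table gives -26.2 points at 18 bp upstream, -31.7 at 19 bp, -27.1 at 347 bp and 28.2 at 792 bp downstream of the start. The same 4 sites lie within 5 kb of Mrto4-ps1, a pseudogene copy of the ribosome assembly gene Mrto4. At 347 bp Gm10479 still had a loss, whereas in Gm9257 each called site from 208 bp on was a gain.

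Gm40862 is the longest of the 4 (23396445 to 23634845, 238 kb), and its 6 sites, described above with their sequence, lay 227 to 344 bp downstream of its outer start and upstream of its second one. 9030624G23Rik (24043528 to 24097256) was the only other gene with at least 3 sites besides Mrto4-ps1. The authors' deposited table gives it a loss of -31.9 points 262 bp inside the upper end of its span and gains of 37.4 and 27.4 points 288 and 317 bp outside it. Altogether the 4 predicted genes held 20 of the 41 sites, 12 gains and 8 losses.

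Genes outside the naming rule, described after their values were seen, showed either direction. The authors' deposited table lists gains of 33.2 and 48.4 points 83 and 30 bp inside the upper end of the transcribed pseudogene Gm4425 and a gain of 31.0 points 185 bp upstream of Gm38699. At Gm38538 it lists a loss of -26.0 points 29 bp upstream and a gain of 28.3 points 282 bp downstream of the start. Over the 5 family genes with called sites within 1 kb of their start (Gm9257, Gm10479, Gm38538, Gm40862 and Gm38699), 3 of 4 upstream sites were losses and 12 of 15 downstream sites were gains. Gm9257 and Gm40862 gave 5 of these downstream gains each, while 2 of the 3 downstream sites of Gm10479 were losses. The interval was drawn around these genes for their called sites, so nothing is read from the split. It also depends on the start used for Gm40862. Counted from its second start, a choice made after the values were seen, 4 of 10 upstream sites were losses and 7 of 9 downstream sites were gains.

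**Figure D2:**
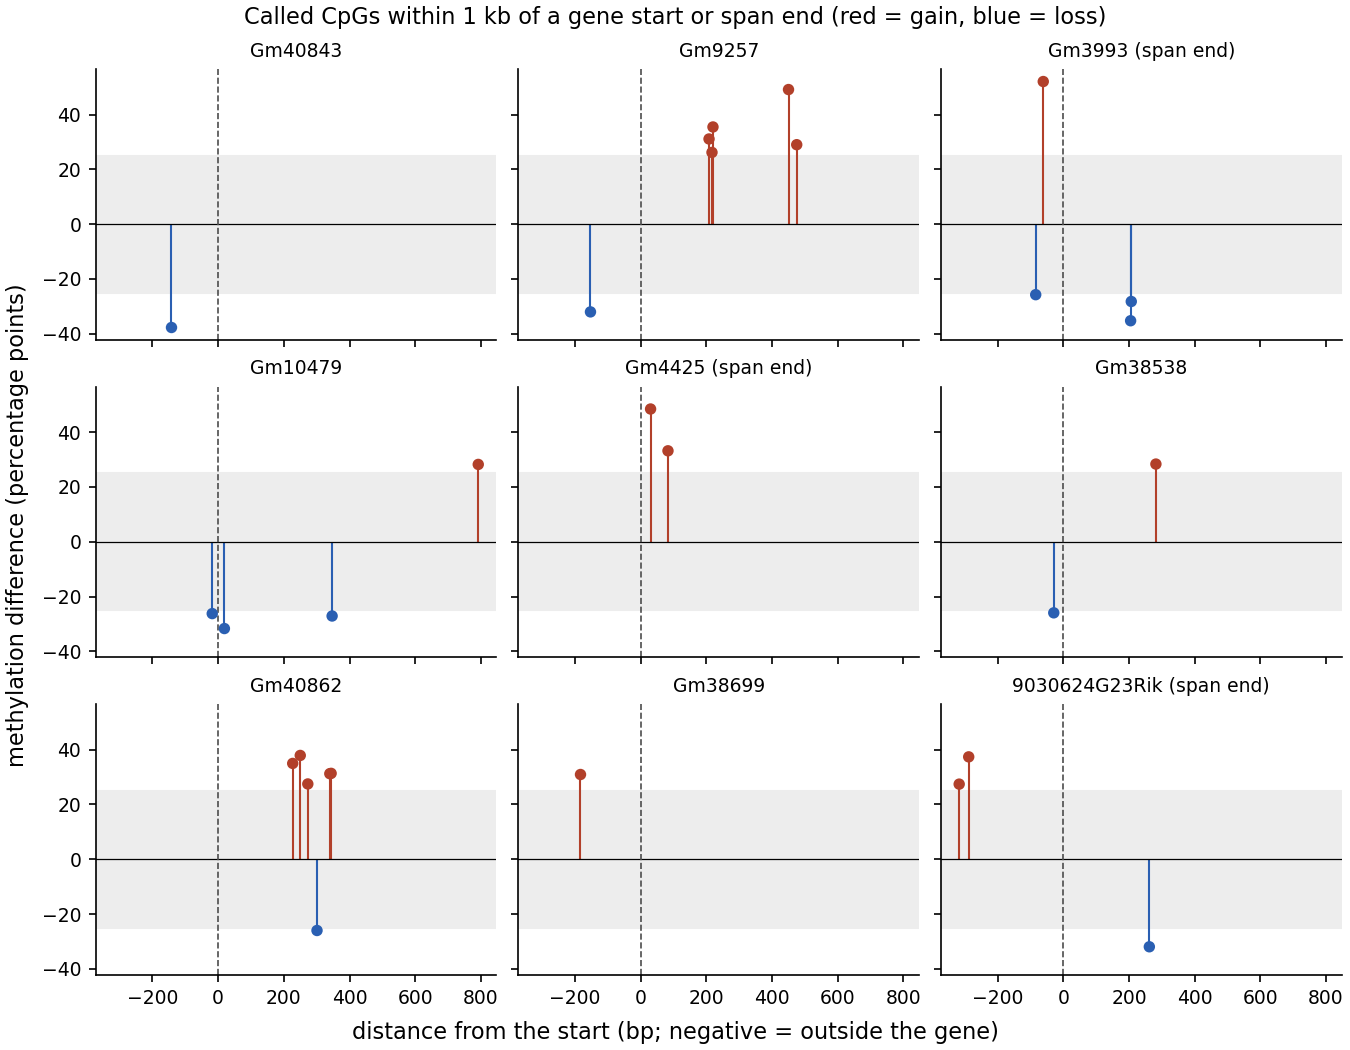
Methylation difference in percentage points of each called CpG (red gains, blue losses) against distance in bp from the annotated start, or from the nearer end of the gene span where the strand was not in the table. The grey band covers differences under 25 points, which the table does not list, and 6 of the 9 genes show sites of both directions, while Gm40843 and Gm38699 have a single site.

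CpG-rich starts, here those with 20 or more CpGs, were frequent in the interval and held all of the called sites found in start windows. That limit was chosen after seeing the data and equals the lowest count in a called window, that of Gm40843. The family windows contained 22 to 33 CpGs (median 29), against a median of 7 over all 32851 start windows of the genome, and 26.5% of those have at least 20. They contained 1 to 5 copies of CCGG (a palindrome, so the same on both strands), the motif cut by MspI, an enzyme often used for this assay, against 52.8% of all start windows with at least 1. Of the 21 start windows of the interval with 20 or more CpGs, 6 (28.6%) held a called site, against 0.279% of 358 such windows on the rest of chromosome 12 and 0.310% of 8701 in the genome. Over start windows of any CpG content it was 0.170%. The called windows include those of Gm9257, Gm10479 and Gm40862, genes the interval was drawn around for their called sites. Nothing is therefore read from this contrast. Among these 21, the family windows with a called site were 4 of 12, and the others 2 of 9, those of Gm40843 and of the second start of Gm40862. Of the 31 windows with fewer CpGs, 0 held a called site. With a limit of 25 CpGs, 23.5% of 17 windows held one, and the called windows of Gm40843 (20 CpGs) and Gm10479 (22 CpGs) fell below the limit. The called CpG of Gm40843 lies in 124 bases that recur unaltered in the start window of Gm42031, a long noncoding RNA gene on chromosome 8.

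Most loci of the interval held several sites, and most of those held both directions. The 41 sites formed 15 loci, 10 of them with several sites, and 8 of these 10 were mixed. On the rest of chromosome 12, 11 of 89 loci had several sites and 5 of the 11 were mixed, and no locus had more than 3 sites. Loci with at least 4 sites numbered 5 in the interval, 5 of them mixed, and 19 in the genome outside it, 4 of them mixed. Those of the interval include the loci at Gm9257, Gm3993, Gm10479 and Gm40862. The interval was drawn around these genes because they carried many sites of both directions, so nothing is read from these contrasts. With sites merged only up to 100 bp, 4 loci of the interval were mixed, and with differences of at least 30 points, 3. From the last site of a locus to the first of the next it was 97.2 to 1074 kb (median 273 kb).

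Sites of opposite direction also stood close together. The 26 neighbouring pairs within 1 kb stood 2 to 550 bp apart. Up to 100 bp, 12 of 18 pairs had the same direction (66.7%, 95% Clopper-Pearson interval 41.0 to 86.7), as did 6 of 9 on the rest of chromosome 12 (66.7%, 29.9 to 92.5) and 282 of 318 in the genome outside the interval (88.7%, 84.7 to 91.9). Beyond 100 bp, 6 of 8 pairs of the interval were opposite (75%, 34.9 to 96.8), against 2 of 4 on the rest of chromosome 12 (50%, 6.76 to 93.2) and 139 of 170 in the genome outside it (81.8%, 75.1 to 87.3). Because the interval was drawn around genes already seen to carry both directions, nothing is read from the contrast with the genome. The 6 opposite close pairs came from 4 loci, 2 at genes and 2 intergenic. In the authors' deposited table, the locus at 21899034, which is 15428 bp from the nearest gene end, alternated through 25.8, -25.2, 31.6 and -26.0 points over 329 bp. The others were at Gm3993, in the Gm40862 run and in the other intergenic locus, at 19954255, where a gain of 31.8 points was followed by losses of -26.2 and -26.9. Restricted to differences of at least 30 points, 5 close pairs were left and all 5 had the same direction.

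**Figure D3:**
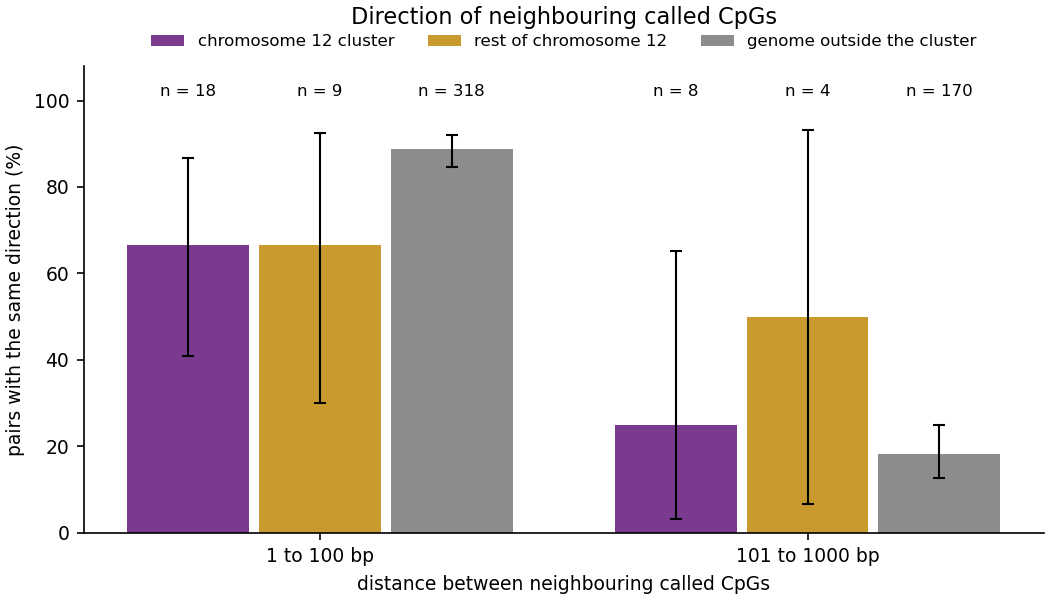
Share of neighbouring called CpG pairs with the same direction, in percent, for pairs up to 100 bp and from there to 1000 bp apart, in the cluster, on the rest of chromosome 12 and in the genome outside the cluster. Bars are shares and lines their 95% Clopper-Pearson intervals, which cover counting error only, and up to 100 bp the share is 66.7% in the cluster, 66.7% on the rest of the chromosome and 88.7% in the genome. The cluster was drawn around genes already seen to carry both directions.

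The remaining intergenic loci were gains. The authors' deposited table lists 28.8 and 34.4 points at 19704236 and 19704243, 37.7 points at 21490709, which is 51972 bp from any gene end, and 28.5 points at 22905942. A further gain of 25.2 points at 21778705 lies in 6030426L16Rik, a gene annotated without a protein product. At the limits of the interval, its first site is the loss of -37.6 points at 19243776 and the nearest site below it the loss at Gm40847. The last site inside is the gain of 27.4 points at 24097573, and the next above it a gain of 31.9 points at 25119448.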

How the data were processed

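DNA methylation was measured by bisulfite sequencing in 12 libraries. Per the submitters' processing notes, methylKit and GRCm38 (mm10) were used. Depth, aligner, minimum coverage and the exact test are not given in the sources. The authors deposited 3 tables of their own comparison: all called sites, the gains and the losses. Per the file headers a row holds a position with its strand, the methylation difference in percentage points (25.0 or more in size), and the p-value and q-value. No per-library value was used, so no test between libraries was made and all results are descriptions. Members and gene groups were chosen with earlier results of these data known.

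Sites up to 1 kb apart were merged into loci, and a locus took the sign of its mean difference. A site was assigned to a gene of the RefSeq table (GRCm38.p6, 49993 genes) in its span or within 5 kb. Genes were named if they were 1 of the 4 given members, had at least 3 sites, had an established coding name and a site, or were nearest to the largest gain or loss. The 7 established coding genes are a group counted in full and are listed although none had a site. The genes Gm4425, Gm38538, Gm38699 and Gm40847, the intergenic loci and the family limit were chosen after their values were seen. Family start windows shared at least 20 words of 20 bases with that of Gm9257 and were aligned with MAFFT 7.526. Every called CpG inside a start window of the interval was checked to be a CG in the sequence. Intervals came from scipy 1.17.1. Functions for merging, pairing and gene assignment were tested on simulated sites. Other difference minima, merging distances, gene margins and limits were tried.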

Additional observations from a re-analysis of the deposited data

How the results depend on the processing

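Of 41 alternative values, 27 stayed within the limits set for them and 14 did not. The limits were 1.5 times for counts and the density ratio, and the 95% interval for shares. A median difference stayed only if it was equal to 3 significant digits. With a difference of at least 30 points, 21 sites and 3 mixed loci were left, the median absolute difference was 34.4 points, and 100% of 5 close pairs had the same direction. With at least 40 points, 3 sites were left, 100% of them gains, with a median of 49.1. In both cases fewer sites were counted. From the first to the last run of 4 or more sites (19606445 to 23634618) the median was 28.9. Merging within 100 bp gave 23 loci, 4 of them mixed. Counted as loci, the density ratio was 3.51. With only sites of the interval counted, 8 genes held a site by spans alone, and Gm3993 held 2 sites. Within 20 kb 22 genes held one. These follow from the counting rules. No pair in the interval was 110 to 180 bp apart (0 pairs), so that band gave no value. The limits on shared words and CpGs and the second start of Gm40862 were chosen after seeing the data. With that start the share of losses among upstream sites of the 5 family genes was 40% in place of 75%, within the wide interval of 4 sites. No paired analysis was possible because the deposited tables hold no value per library, and for the same reason no library could be left out.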
